A study of Mus musculus with 6 samples.

Results

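The 9 core genes of Hedgehog signalling, *Shh*, *Ihh*, *Ptch1*, *Smo*, *Gli1*, *Gli2*, *Gli3*, *Hhip* and *Gas1*, were examined in cultured mammary spheres of tumour-prone mice. They were chosen by name, and all 9 were among the 19893 gene symbols with a row in all 6 count tables, each with 1 RefSeq transcript row. Both groups came from MMTV-HER2/Neu mice on the FvB background, in which a mammary tumour virus promoter drives the Neu (ErbB2) oncogene. The primary tumour (PT) spheres, 3 libraries, were grown from tumours of mice older than 20 weeks. The early lesion (EL) spheres, also 3 libraries, were grown from mammary glands of mice aged 14 to 18 weeks that had no tumour that could be felt. All cells were kept for 7 days in mammosphere medium on plates that prevent attachment, polyadenylated RNA was sequenced, and no sort or selection other than sphere growth is given. Nothing in the labels says that the 3 libraries of a group are from 3 mice or cultures. The p-values therefore reflect only how far these libraries differ, and that spread may be technical.

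Hedgehog ligands are secreted proteins that bind the receptor Ptch1 and so release the membrane protein Smo, which acts at the primary cilium. Smo in turn changes the balance of the Gli transcription factors, of which Gli2 is mainly an activator, Gli3 mainly a repressor, and Gli1 an activator that is itself a target of the pathway. *Ptch1*, *Gli1* and *Hhip* are standard target genes. In the mammary gland the pathway is known for exchange between epithelium and stroma, and Gli3 is needed for the forming mammary bud of the mouse embryo.

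The tables held 78054335 to 85126630 counts per PT library and 69759793 to 73654058 per EL library, the lowest from an EL replicate 1 table that breaks off before its end. Rows for several transcripts of 1 gene can hold nearly the same counts, as those of *Scube1* do, so these sums can count a read more than once. The instrument in the labels is a MiSeq, whose usual yield is below such totals, and the sources used here do not settle this. Correlations of log2 CPM (counts scaled to library size with TMM factors) were at least 0.997 within PT and 0.995 within EL, and 0.839 to 0.847 between the groups. At a Benjamini-Hochberg adjusted p under 0.05, the edgeR quasi-likelihood test called 80.7% of the 13844 genes tested, 39.9% higher and 40.8% lower in PT. Scaling by library totals instead of TMM moved the median log2 fold change up by 0.25, and 65.8% of calls, against 49.5% under TMM, were then higher in PT. With 1 row per symbol, the library totals that entered the fit were 47024541 to 51111942 counts per PT library and 43271236 to 44159032 per EL library.

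The promoters of 7 of the 9 genes could be read from RefSeq (GRCm38, 250 bases before to 50 after the start), those of *Shh* and *Gli1* being the others. Shown here are the bases before the start of *Ptch1*, the one that rose most among the 6 of the 9 that were tested, and of *Gli2*, the one among these with the deepest fall, 5′ to 3′ on the minus strand. Capitals mark CpG dinucleotides. The *Ptch1* window is chr13:63565736-63565985 and the *Gli2* window is chr1:119053620-119053869. Both lie inside the full span of their gene, which reaches further upstream.
Ptch1: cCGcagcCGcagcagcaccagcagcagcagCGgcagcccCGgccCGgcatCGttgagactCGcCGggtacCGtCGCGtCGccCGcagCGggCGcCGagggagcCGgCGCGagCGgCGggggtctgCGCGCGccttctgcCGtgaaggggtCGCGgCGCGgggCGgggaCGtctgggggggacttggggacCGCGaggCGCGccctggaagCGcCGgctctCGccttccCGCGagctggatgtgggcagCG
Gli2: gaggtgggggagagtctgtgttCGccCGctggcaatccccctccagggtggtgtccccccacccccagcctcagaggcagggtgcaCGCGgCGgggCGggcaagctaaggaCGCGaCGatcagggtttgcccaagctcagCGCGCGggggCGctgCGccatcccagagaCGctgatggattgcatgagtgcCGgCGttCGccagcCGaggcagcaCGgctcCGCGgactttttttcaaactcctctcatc
The 300-base windows of the 7 genes held 17 to 47 CpG dinucleotides, 47 in *Ptch1* and 28 in *Gli2*, against a median of 7 over 32851 promoters. Their GC content lay between 62.3% in *Gas1* and 76.3% in *Ptch1*, against a median of 52.7%. The motif bound by Gli proteins, GACCACCCA, was searched on both strands. It was in none of the 7 windows, also when 1 changed base was allowed, and was found in 0.253% of all promoters exactly and in 6.74% with up to 1 change.

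Transcripts of the Hedgehog ligands were at or near 0 in both groups. *Shh* (RefSeq NM_009170, chromosome 5, 28456840 to 28467101), the best studied ligand, had 0, 1 and 0 counts in the PT libraries and 0 in each EL library. A total of 0 counts allows up to 0.0249 CPM over the EL libraries, and no fold can be given. *Ihh* (NM_010544, chromosome 1, 74945315 to 74951672), the ligand known from growing bone and gut, had 6, 8 and 6 counts in PT and 5, 3 and 5 in EL. The groups overlapped, with a ratio of PT to EL of 1.16 (exact 95% interval 0.548 to 2.53, counting error only). *Hhip* (NM_020259, chromosome 8, 79965850 to 80058060), a membrane protein that binds and holds back the ligands, had 4, 7 and 2 counts in PT and 7, 9 and 5 in EL. Its ratio was 0.466 (interval 0.214 to 0.974), and the values overlapped. These 3 genes did not pass the filter on low counts. Fitted without that filter by edgeR, none was called, with adjusted p = 0.462 for *Shh*, 0.741 for *Ihh* and 0.127 for *Hhip*.

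Of the third ligand gene and the genes that lipid-modify and release ligands, 6 in all, 4 fell, 1 did not pass the test, and *Scube2* was not tested. Over all genes tested 80.7% were called and 40.8% were lower. *Dhh*, the ligand of Schwann cells and testis, had 6, 2 and 5 counts in PT and 10, 11 and 14 in EL (log2 fold change -1.81, SE 0.46, edgeR adjusted p = 0.00268). It passed the filter on low counts through the EL libraries alone, none of the PT libraries reaching the cutoff. *Disp1*, which exports the lipid-bearing ligand, stood at 14.6 ± 0.193 CPM in PT and 26.3 ± 0.928 CPM in EL (SD, n = 3 each; log2 fold change -0.85, SE 0.05). The secreted carrier genes differed among themselves. *Scube3* was at -1.33 (SE 0.11). *Scube1* did not pass at -0.03 (SE 0.04; edgeR adjusted p = 0.472), and with library totals it was at 0.21 and passed. *Scube2* had 0 counts in PT and 29 over the EL libraries, at least 12.9-fold lower in PT against a floor of 3 counts over the group. Fitted without the filter, *Scube2* was called lower (edgeR adjusted p = 0.000308). *Hhat*, which attaches the lipid, was at -0.26 (SE 0.06) and did not pass with library totals.

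**Figure D1:**
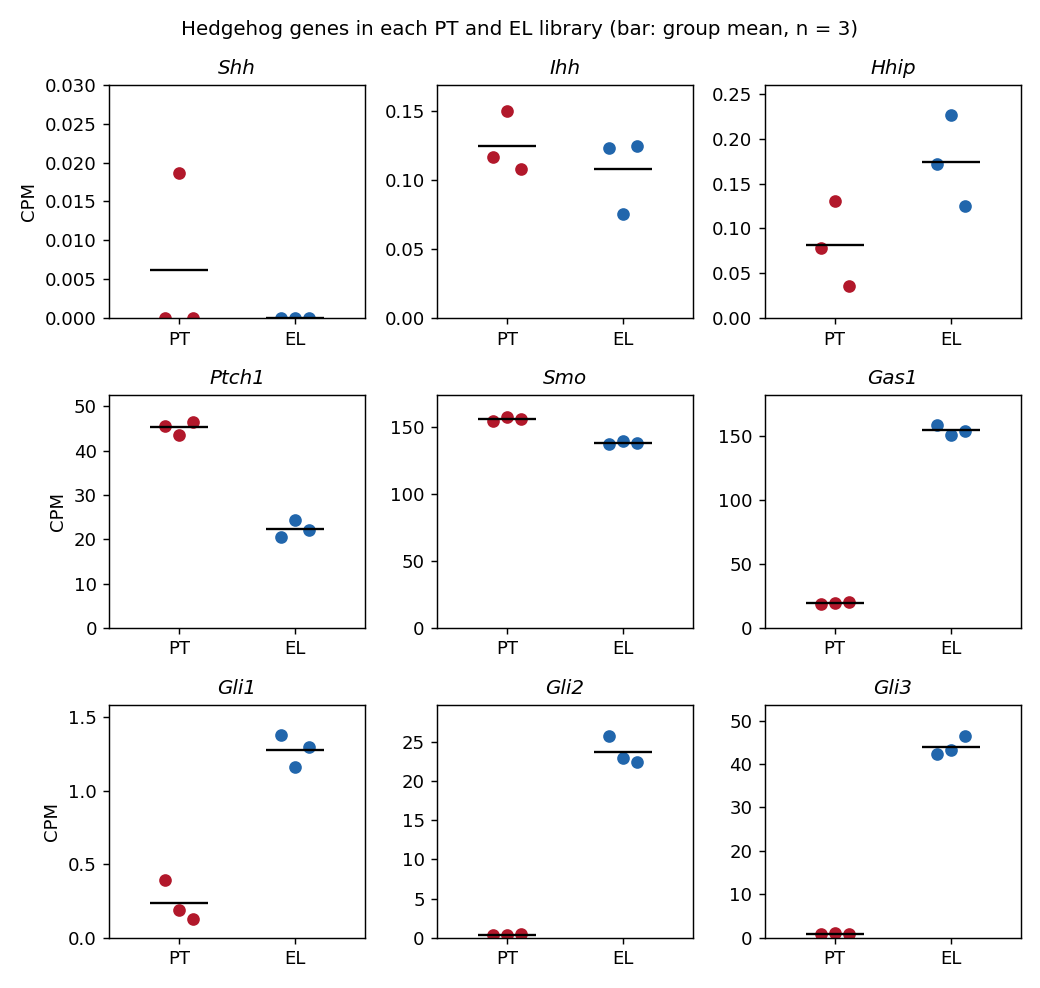
CPM of each of the 9 Hedgehog genes in the 3 PT and 3 EL libraries, with 1 dot per library, a bar at the group mean and a separate linear axis from 0 for each gene. *Ptch1* and *Smo* lie higher in PT, *Gas1* and the 3 *Gli* genes lie higher in EL, and the ranges of *Shh*, *Ihh* and *Hhip* overlap.

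The receptor and the signal transducer were higher in PT. *Ptch1* (NM_008957, chromosome 13, 63508328 to 63573460) had 45.6, 43.5 and 46.5 CPM in the PT libraries and 20.5, 24.3 and 22 CPM in the EL libraries. Every PT value was above every EL value, and *Ptch1* rose 2.03-fold (log2 fold change 1.02, SE 0.06, edgeR adjusted p = 2.05e-09). *Smo* (NM_176996, chromosome 6, 29735497 to 29761366) had 154, 157 and 156 CPM in PT and 137, 139 and 138 CPM in EL. The groups did not overlap, but the difference was small (log2 fold change 0.18, SE 0.03, edgeR adjusted p = 7.30e-05), and it was 0.42 with library totals. Its size therefore rests on the scaling. Inside each library, where no scaling enters, there were 0.295, 0.278 and 0.298 *Ptch1* counts per *Smo* count in PT and 0.15, 0.175 and 0.160 in EL. That ratio was 1.80-fold higher in PT, and the groups did not overlap (two-sided exact permutation p = 0.1, the lowest possible with 3 libraries a group; adjusted p = 0.111 over the 10 ratios computed, all chosen after the values were seen).

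The 3 co-receptors that present ligand to Ptch1 did not move together. *Gas1* (NM_008086, chromosome 13, 60174405 to 60177535), a lipid-anchored surface protein also known from growth arrest, had 18.9, 19.4 and 20.0 CPM in PT and 159, 151 and 154 CPM in EL. All PT values lay far below the EL values (log2 fold change -2.99, SE 0.04, edgeR adjusted p = 8.43e-16). *Boc* rose to 65.9 ± 0.895 CPM in PT, against 45.6 ± 1.08 CPM in EL (SD, n = 3 each; log2 fold change 0.53, SE 0.04). *Cdon* rose to 84.2 ± 1.77 CPM in PT, against 70.0 ± 1.57 CPM in EL (log2 fold change 0.27, SE 0.03). The number of *Cdon* counts per *Gas1* count was 4.38, 4.45 and 4.19 in PT and 0.430, 0.472 and 0.457 in EL. For *Boc* it was 3.46, 3.45 and 3.27 in PT and 0.295, 0.300 and 0.290 in EL. Both ratios were higher in every PT library than in any EL library (exact permutation p = 0.1 for each ratio, the smallest possible). *Gpc3*, a glypican that competes with Ptch1 for ligand, was at -5.15 (SE 0.25), from 7, 9 and 7 counts in PT and 165, 220 and 241 in EL. It too passed the filter through the EL libraries alone. *Lrp2*, with 1 to 6 counts per library, was not tested.

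Transcripts of all 3 Gli factors were lower in PT. *Gli2* (NM_001081125, chromosome 1, 118834061 to 119054405) had 0.332, 0.375 and 0.413 CPM in PT and 25.8, 23.0 and 22.4 CPM in EL. It was 63.0-fold lower in PT (log2 fold change -5.98, SE 0.12, edgeR adjusted p = 4.88e-14). *Gli3* (NM_008130, chromosome 13, 15463723 to 15730026) had 0.917, 0.974 and 0.808 CPM in PT and 42.3, 43.1 and 46.5 CPM in EL, and was 48.8-fold lower in PT (log2 fold change -5.61, SE 0.08, edgeR adjusted p = 2.93e-15). Neither gene was absent from PT, with 17 to 23 counts of *Gli2* and 45 to 52 of *Gli3* per library. *Gli1* (NM_010296, chromosome 10, 127329882 to 127341579) had 0.390, 0.187 and 0.126 CPM in PT and 1.38, 1.16 and 1.3 CPM in EL. The PT values come from 20, 10 and 7 counts and the EL values from 56, 46 and 52. *Gli1* was 5.47-fold lower in PT (log2 fold change -2.45, SE 0.31, edgeR adjusted p = 9.13e-06). It passed the filter through the EL libraries, since only 1 PT library reached the cutoff. PT replicate 1 was the highest of its group, and without it the log2 fold change was -3.01.

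The standard targets *Ptch1* and *Gli1* thus moved in opposite directions. There were 117, 232 and 370 *Ptch1* counts per *Gli1* count in PT and 14.9, 21.0 and 17.0 in EL, a 12.4-fold higher ratio in PT with no overlap (exact permutation p = 0.1, the smallest possible). *Gli1* also fell less than its relatives, though its PT values rest on only 20, 10 and 7 counts. Its ratio to *Gli2* was 1.18, 0.500 and 0.304 in PT and 0.0534, 0.0503 and 0.0578 in EL, and its ratio to *Gli3* was 8.06-fold higher in PT (exact permutation p = 0.1 for both, the smallest possible). The ratio of *Gli3* to *Gli2* overlapped between the groups, at 2.76, 2.60 and 1.96 in PT and 1.64, 1.88 and 2.07 in EL (exact permutation p = 0.2).

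**Figure D2:**
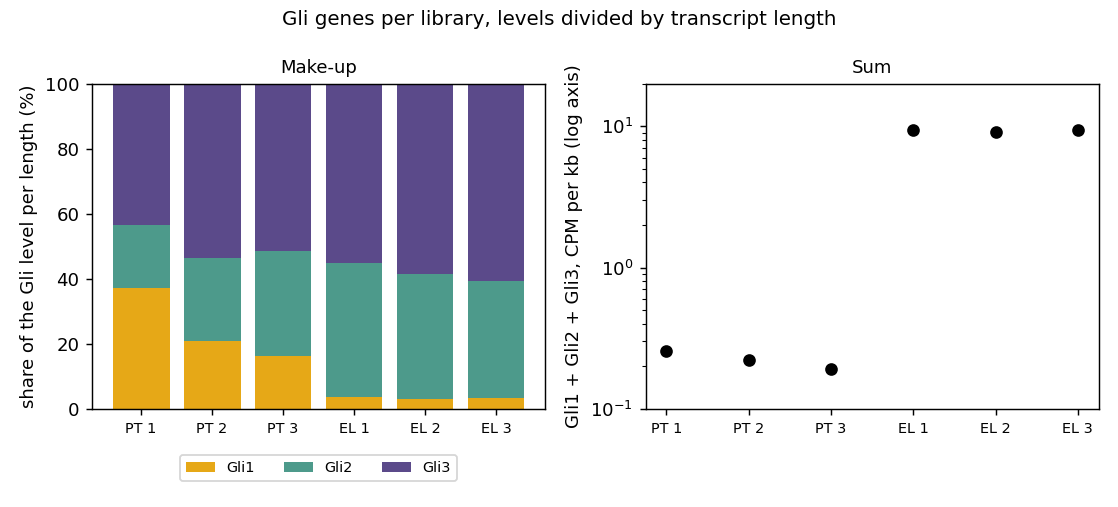
Left, the share of each *Gli* gene in the summed *Gli* level of each library, in percent, from CPM divided by transcript length. Right, that sum in CPM per kb on a log axis, with 0.192 to 0.258 in PT and 9.04 to 9.41 in EL. *Gli1* takes 16.2% to 37.2% of the sum in PT, from only 7 to 20 *Gli1* counts per library, and 3.17% to 3.61% in EL.

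Levels of different genes were compared as CPM per kb of the longest protein-coding GENCODE transcript, which for *Gas1* is not the one matched to its RefSeq row. In PT the order ran from *Smo* (41.2 ± 0.404 CPM per kb, SD, n = 3) to *Gas1* (6.56 ± 0.186), *Ptch1* (5.85 ± 0.199) and, far below, *Gli3* (0.110 ± 0.0103). *Gli1* (0.0578), *Gli2* (0.0563) and *Ihh* (0.0506 CPM per kb) came next in PT, and their libraries overlapped. *Hhip* and *Shh* were last in PT and overlapped too. In EL, *Gas1* (52.2 ± 1.36 CPM per kb) stood above *Smo* (36.5 ± 0.265), followed by *Gli3* (5.38 ± 0.273), *Gli2* (3.58 ± 0.273), *Ptch1* (2.88 ± 0.248) and *Gli1* (0.316 ± 0.0274), with no overlap between neighbours in this order. *Ptch1* therefore stood above all 3 *Gli* genes in PT and below *Gli2* and *Gli3* in EL. Summed over the 3 genes, *Gli3* made up 49.5 ± 5.42% in PT and 58.0 ± 2.82% in EL, *Gli2* 25.8 ± 6.50% in PT and 38.6 ± 2.65% in EL, and *Gli1* 24.7 ± 11% in PT and 3.40 ± 0.220% in EL.

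All 6 core genes that could be tested passed, 2 higher and 4 lower in PT, and in none of the 6 did the libraries of the groups overlap. Since 80.7% of all genes tested were called and 82.7% did not overlap, neither count sets them apart. Falls of over 2-fold were seen in 19.4% of the genes tested and rises of over 2-fold in 9.45%. By that measure *Gli1*, *Gli2*, *Gli3* and *Gas1* are in the lower group and *Smo* is in neither. *Ptch1* lay at the 2-fold border and did not pass a test against a 2-fold minimum (edgeR adjusted p = 0.540).

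Of 13 genes that act between Smo and the Gli factors, *Evc* and *Evc2* had the deepest falls. Among the 13, 3 rose, 7 fell and 3 did not pass, where 80.7% of all genes tested were called, with a median log2 fold change of -0.11, against 0.0049 over all genes tested. *Evc* and *Evc2* encode the ciliary complex that binds active Smo. *Evc* had 11, 21 and 16 counts in PT and 988, 865 and 806 in EL (log2 fold change -6.19, SE 0.15). *Evc2* had 19, 33 and 33 counts in PT and 1696, 1489 and 1499 in EL (log2 fold change -6.19, SE 0.11). No *Evc* or *Evc2* value in PT came near the EL values. *Sufu*, the main inhibitor that holds Gli proteins in the cytoplasm, did not pass, at 48.1 ± 1.26 CPM in PT and 48.8 ± 1.5 CPM in EL (log2 fold change -0.02, SE 0.04, edgeR adjusted p = 0.605), and with library totals it was at 0.22 and passed. *Tulp3* and *Gpr161*, which restrain the pathway at the cilium, fell, with log2 fold changes of -0.90 and -1.14. *Kif7*, a ciliary kinesin, fell (-0.66), and so did *Spop* (-0.38), a ubiquitin ligase adaptor for Gli proteins. The kinase gene *Ulk3* rose by 0.44. The kinase genes *Prkaca* (0.11), *Csnk1a1* (0.08) and *Gsk3b* (-0.11) passed with values smaller than the shift between scalings, and *Gsk3b*, whose groups overlapped, was at 0.14 with library totals. Of 17 alternatives *Csnk1a1* lost its call in 10, with DESeq2 and without any one PT library among them, and *Gsk3b* lost it in 7, without EL replicate 2 or 3 or PT replicate 1 or 2 among them.

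Of 8 genes of the primary cilium, the organelle in which Smo acts, 5 rose, 2 fell and 1 did not pass, against 39.9% higher and 40.8% lower over all genes tested, with a median of 0.26 on the log2 scale. *Rpgrip1l*, of the ciliary transition zone, rose to 21.5 ± 0.920 CPM in PT, against 13.1 ± 1.02 CPM in EL (SD, n = 3 each; log2 fold change 0.71, SE 0.06). *Kif3a*, a motor of ciliary transport, rose by 0.48 (SE 0.04). The transport gene *Ift172* and the small GTPase gene *Arl13b* fell, with log2 fold changes of -0.43 and -0.37. *Ift122* (0.16) lost its call with DESeq2 and when EL replicate 3 or any PT library was left out.

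Of 10 other genes known as Hedgehog targets in one tissue or another, 7 fell, 1 rose, 1 did not pass and 1 was not tested. Over all genes tested 40.8% were lower and 39.9% higher. The median log2 fold change was -3.08 over the 9 tested, which is the value of *Bmp4*. Of the 9, 4 passed the filter without all PT libraries reaching its cutoff, namely *Foxf1*, *Foxf2*, *Foxl1* and *Bmp4*. All 4 are among those that fell, so the median depends on genes kept for their EL level. *Foxf1*, a forkhead factor of visceral mesenchyme, had 2, 3 and 1 counts in PT and 45, 33 and 41 in EL (log2 fold change -4.62, SE 0.39). *Foxf2* and *Foxl1*, of the same kind, were at -3.45 (SE 0.32) and -3.70 (SE 0.38). *Bmp4*, a secreted growth factor, was at -3.08 (SE 0.25). *Ccnd2*, cyclin D2, stood at 3.41 ± 0.109 CPM in PT and 244 ± 12.9 CPM in EL (SD, n = 3 each; log2 fold change -6.16, SE 0.06). *Bcl2*, a survival gene, was the 1 that rose, to 102.5 ± 1.40 CPM in PT, against 39.4 ± 1.81 CPM in EL (log2 fold change 1.38, SE 0.04). *Nkx2-2*, a target of the neural tube, had 2 counts in all.

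**Figure D3:**
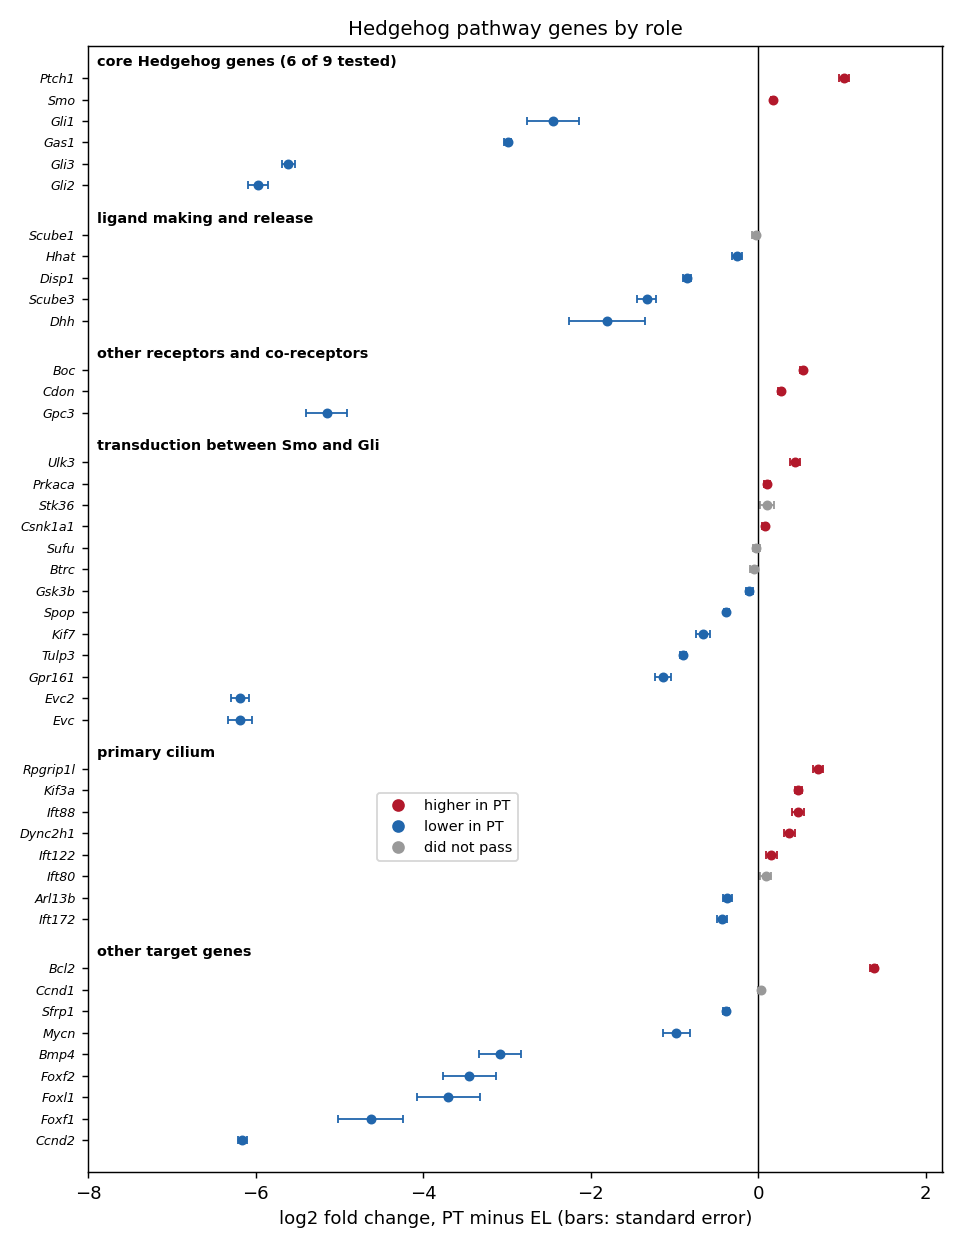
Log2 fold change (PT minus EL) with its standard error for the 6 core genes tested and the other Hedgehog genes shown, grouped by role and coloured by the edgeR call at an adjusted p of 0.05. Of the genes shown, *Gli2*, *Gli3*, *Evc*, *Evc2*, *Gpc3*, *Ccnd2*, *Foxf1*, *Foxf2* and *Foxl1* lie furthest to the left, while most transduction and cilium genes lie near 0.

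Over the 42 other Hedgehog genes, 11 rose, 22 fell, 6 did not pass and 3 were not tested, with a median of -0.37 over the tested ones. The number called is near the 80.7% over all genes tested. Over all genes 39.9% were higher and 40.8% lower, with a median of 0.0049. Of the other Hedgehog genes tested, 7 passed the filter with at least 1 PT library below its cutoff, 5 of them with every PT library below it. All 7 are among those that fell. With a filter of at least 1 CPM in 3 libraries, 10 rose and 19 fell, where 5242 of all 12731 genes tested were higher and 5191 lower. With library totals 18 rose and 20 fell, where 7911 of all 13844 genes tested were higher and 4111 lower. The lists were written with earlier results of these data known, so their direction is not independent evidence.

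Markers of stromal cells moved with the *Gli* genes. All 10 fibroblast markers fell, with log2 fold changes of -7.50 to -5.20, and their summed level was 653 to 780 CPM in PT and 65500 to 69870 CPM in EL. The values of *Gli2* (-5.98) and *Gli3* (-5.61) lie inside that range, and those of *Evc*, *Evc2* and *Ccnd2* do too. The falls of *Gas1* (-2.99) and *Gli1* (-2.45) were smaller than that of every fibroblast marker. All 5 pericyte markers fell (-5.33 to -1.79), with sums of 30.8 to 33.1 CPM in PT and 362 to 377.5 CPM in EL. All 6 endothelial markers fell (-10.29 to -4.06), with sums of 4.94 to 5.32 CPM in PT and 210 to 225 CPM in EL, and so did the 3 of 5 adipocyte markers tested, with sums over the list of 32.3 to 40.7 CPM in PT and 369.9 to 440.0 CPM in EL. *Cldn5* of the endothelial list had 1 count over the PT libraries and 1349 over the EL libraries. The adipocyte genes *Adipoq* and *Plin1* had 0 counts in PT and only 10 and 2 over the EL libraries. Most of the adipocyte sum was *Lpl*, with 29.3 to 37.5 CPM in PT and 344 to 415 CPM in EL. The values of *Gli2*, *Gli3*, *Evc*, *Evc2* and *Ccnd2* also lie inside the endothelial range. Those of *Gas1* and *Gli1* lie inside the pericyte range and inside that of the tested adipocyte markers (-3.50 to -2.24). In such bulk samples fewer cells of a type and less RNA per cell cannot be told apart, and the part of these cells in the *Gli* and *Gas1* values was not tested.

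Most luminal epithelial markers were higher in PT, as *Ptch1* and *Smo* were. Of 7 luminal markers 6 rose, by 1.15 to 3.08 on the log2 scale, and *Krt19* fell, with a log2 fold change of -6.71. Their sum was 6818 to 7023 CPM in PT and 2053 to 2115 CPM in EL. The 6 basal markers were split, 3 higher and 3 lower (*Krt5* at -8.49), with sums of 603 to 634 CPM in PT and 474 to 523 CPM in EL. Set against *Epcam*, the epithelial adhesion gene, *Ptch1* was lower in PT, with 0.0394, 0.0368 and 0.04 counts per *Epcam* count in PT and 0.0434, 0.0496 and 0.0456 in EL. *Smo* was at 0.133, 0.132 and 0.134 counts per *Epcam* count in PT and 0.290, 0.283 and 0.285 in EL (exact permutation p = 0.1 for both, the smallest possible). Per *Epcam* count, both genes were lower in every PT library than in any EL library. *Epcam* was the only epithelial gene they were set against, and the direction for *Ptch1* depends on that choice. The 6 luminal markers that rose did so by more than *Ptch1* (1.02), while *Krt19* fell. Among the basal markers, *Krt17* (2.79) and *Oxtr* (3.52) rose by more, *Krt14* (0.26) by less, and 3 fell. Macrophage markers rose in 5 of 6, with sums of 147 to 168 CPM in PT and 65.7 to 87.6 CPM in EL, and 3 of the 4 Schwann cell markers tested rose, with sums of 639 to 644 CPM in PT and 215 to 227 CPM in EL. *Sox10* is also made by mammary epithelium. The part of any of these cells in the *Ptch1* and *Smo* values was not tested. None of the 5 lymphocyte markers was tested, with sums of 0 to 0.0749 CPM in PT and 0.417 to 1.87 CPM in EL. Lung appears beside mammary in the tissue given for EL. The lung markers *Sftpa1*, *Scgb1a1* and *Nkx2-1* had 0 counts in all 6 libraries, *Sftpb* had at most 1, and *Sftpc* had 10 to 11 in PT and 0 to 6 in EL. *Ager*, the 1 lung marker tested, did not pass.

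**Figure D4:**
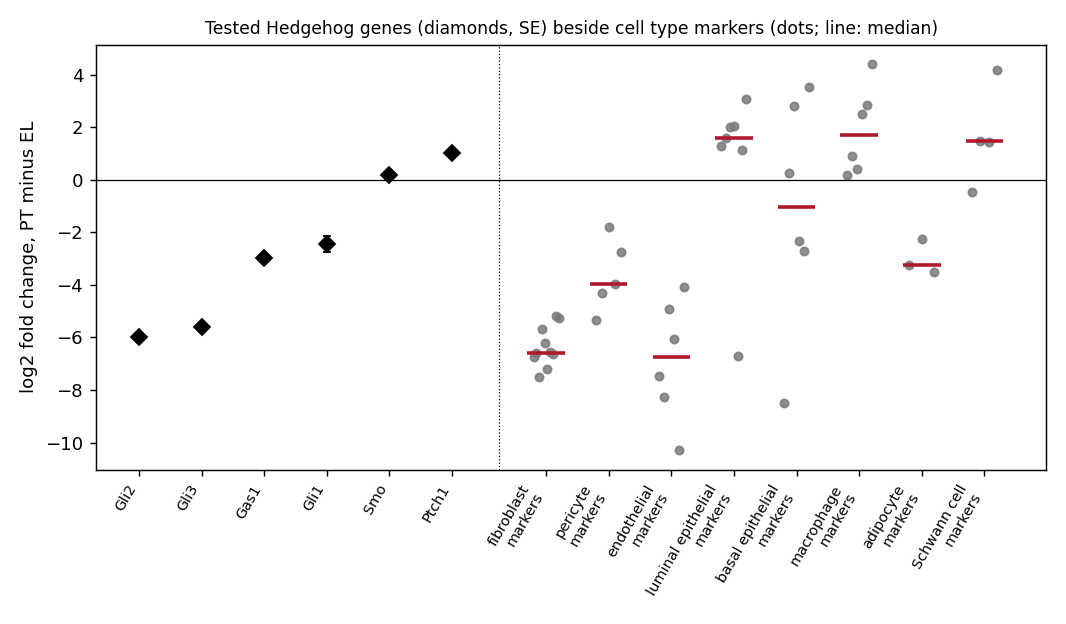
Log2 fold change (PT minus EL) of the 6 core genes tested, as diamonds with their standard error, beside that of each tested marker of 8 cell types, as dots with a line at the list median. *Gli2* and *Gli3* stand level with the fibroblast markers (median -6.58) and also inside the endothelial range. *Gas1* and *Gli1* stand above all fibroblast markers but inside the pericyte and adipocyte ranges, and *Ptch1* stands below the luminal median of 1.6.

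Some reads may not be assignable to 1 gene. Exons of the longest protein-coding transcripts of *Ptch1*, *Smo*, *Gli2*, *Gli3* and *Ihh* overlap no exon of another gene in GENCODE. Of the *Gli1* transcript, 6.53% overlaps the predicted gene *Gm47200* and 1.53% overlaps *Arhgap9*, both on the other strand, and of the *Gas1* transcript 19.9% overlaps the predicted gene *Gm48488* on the other strand. For *Shh* the overlaps were 15.7% and 12.7%, and for *Hhip* 1.93%, all with genes on the other strand. The sources used here do not give the strand setting of the counting, so reads from these stretches cannot be told apart. *Arhgap9* itself did not pass (log2 fold change 0.17, edgeR adjusted p = 0.410).

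Genes with the pattern most like a core gene were sought among 13424 others by the root mean square difference of log2 CPM centred over the 6 libraries, which 1 contrast dominates. Nearest to *Ptch1* were *Trps1* (0.0184), a GATA-type factor gene of mammary epithelium, *Prkca* (0.0255), a protein kinase C gene, and *Baz2b* (0.0383). *Trps1* averaged 725.5 CPM in PT and 361 CPM in EL. Nearest to *Gas1* were *Tnfaip2* (0.0171), *Ttc7b* (0.0284) and *Pou2f3* (0.0378). *Pou2f3* had 0 counts in PT and 36 over the EL libraries, at least 16.0-fold lower against the floor of 3 counts over the group, so its likeness depends on the prior count of 2 added before taking logs. For *Gli1* the distances were larger, 0.189 to *Gdap1l1*, 0.206 to *Mpp3* and 0.213 to *Kcnh2*.

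**Figure D5:**
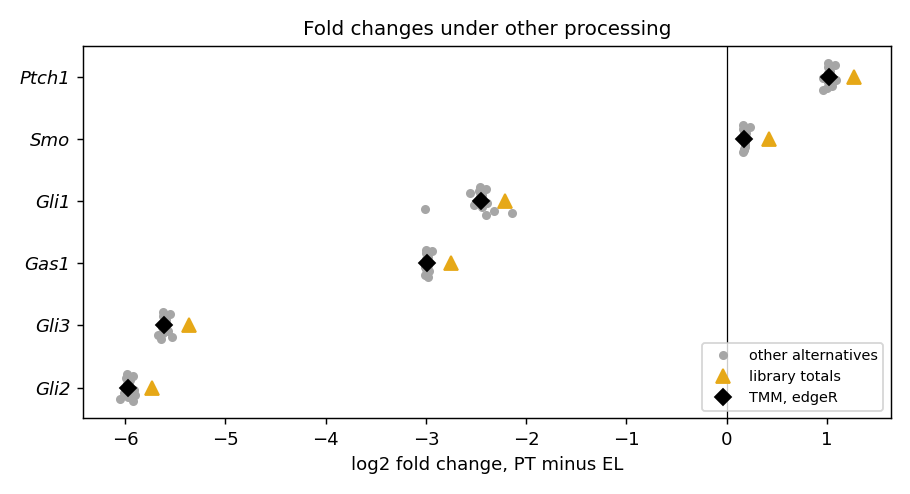
Log2 fold change (PT minus EL) of the 6 core genes tested with TMM factors and edgeR (diamonds), with library totals (triangles) and with the other alternatives (grey dots: other factors, tools, filters, a replicate block, each library left out, and the 5 complete libraries). Each gene stays on its side of 0, and *Gli1* spreads most, from -3.01 to -2.14.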

How the data were processed

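RNA from PT and EL spheres, 3 libraries each, was measured as raw whole-number counts per RefSeq transcript. The authors deposited these counts, not normalised, with 1 table per library. Per the submitters' processing notes, STAR, featureCounts and DESeq2 were used with the builds mm10 and hg19. For the tools' versions and settings and for strand, nothing is given in the sources used here. A complete table has 33068 rows. That of EL replicate 1 has 27664, so the rows present in all 6 were used, keeping for each symbol its most counted transcript row.

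In R 4.3.3, edgeR 4.0.16 kept 13844 genes by filterByExpr (about 0.219 CPM in 3 libraries), scaled them by TMM and tested PT against EL by quasi-likelihood. Log2 fold changes are PT minus EL. A standard error (SE) is the fold change divided by the root of F. DESeq2 1.42.0 and limma 3.58.1 served as alternatives, and the test was checked on simulated counts. That simulation changed few genes, equally in both directions, and left out genes with few counts. It therefore does not cover a contrast as broad as this one. Intervals and floors cover counting error only.

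The members and lists were chosen with earlier results of these data known. Of each list of other Hedgehog genes, up to 4 with the smallest p were named by rule, and for *Ptch1*, *Gli1* and *Gas1* the 3 nearest genes. Further genes of the lists (*Scube1*, *Scube2*, *Lrp2*, *Sufu*, *Btrc*, *Gpr161*, *Kif7*, *Ulk3*, *Prkaca*, *Csnk1a1*, *Gsk3b*, *Ift122*, *Foxf2*, *Foxl1*, *Nkx2-2*) and *Arhgap9* were named after their values were seen. Some members of the lists, though counted in them, are not reported here by name. Transcript lengths and exons come from GENCODE M21 (GRCm38), gene positions and promoters from RefSeq.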

Additional observations from a re-analysis of the deposited data

How the results depend on the processing

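The 6 core genes tested kept their direction under all 17 alternatives, and all but *Ptch1* and *Smo* kept their call under each. Against a 2-fold minimum edgeR called 0 core genes higher and 4 lower, 1 of the other Hedgehog genes higher and 10 lower, and 1010 genes of all higher and 2391 lower. With library totals 18 of the other Hedgehog genes were higher, as were 7911 of all 13844 genes tested. The log2 fold changes of *Scube1*, *Sufu*, *Gsk3b* and *Btrc* then turned to 0.21, 0.22, 0.14 and 0.19. With upper-quartile factors *Scube1*, *Sufu* and *Btrc* turned to 0.024, 0.0338 and 0.0006. With each library left out in turn, *Scube1* ranged from -0.0664 to 0.0022 (without PT replicate 2) and *Sufu* from -0.0456 to 0.0000 (without EL replicate 1), while *Gli1* ranged from -3.01 (without PT replicate 1) to -2.14 and *Ptch1* from 0.97 to 1.09. Same-numbered libraries correlated at 0.0222, 0.00839 and -0.00216 in their deviations from the group means. With libraries so alike within a group, these deviations may be mostly counting error. The values therefore cannot settle whether the replicate numbers pair the libraries. With the replicate block edgeR called 5539 genes higher and 5664 lower, and 2 core genes higher and 4 lower. The 5 complete libraries with all rows, an alternative chosen after seeing the data, called the same numbers of core genes. Few counts limit what can be said of *Shh*, *Ihh* and *Hhip*, none of which edgeR called when fitted without the filter.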
